A study of Mus musculus with 6 samples.

Results

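The genes of MHC class I antigen presentation were examined in control and Tet1/Tet2 siRNA-treated mouse bone marrow cells, labelled BMMSCs, a name for stromal cells of the marrow. The 10 genes were taken by symbol from a hand-compiled list: the peptide transporter genes Tap1 and Tap2, the loading factor Tapbp, the immunoproteasome subunits Psmb8, Psmb9 and Psmb10, the light chain B2m, the classical heavy chains H2-K1 and H2-D1, and the transactivator Nlrc5. All 10 were found among the 36870 symbols of the deposited table, and all 10 were among the 13266 genes that reached a mean of 0.1 RPKM (reads scaled to gene length and library size) over the 6 libraries and were tested. Total RNA was sequenced from C57BL/6 cells of passage 2 by their labels, although the methods name another passage, in 3 control libraries and 3 libraries in which siRNAs targeted Tet1 and Tet2 together. The labels' treatment protocol names a non-targeting siRNA for the controls, whereas the sequencing methods call them vehicle-treated. The labels do not say whether the libraries of a group came from separate cultures, so p-values measure only the spread between these libraries, which may be technical. The table gives no read totals. From the steps of low values in genes with a single annotated transcript, the control libraries were estimated at 37200000, 32900000 and 32300000 reads and the siRNA libraries at 38000000, 38600000 and 35500000 reads. By this estimate and the longest annotated transcript, the values of the 10 genes rested on between 1018 and 131046 reads in a library.

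MHC class I molecules show peptides from inside the cell to CD8 T cells and to natural killer cells. Proteasomes break cytosolic proteins into peptides, the TAP transporter carries the peptides into the endoplasmic reticulum, and tapasin holds the transporter next to empty class I molecules, each made of a heavy chain and beta-2 microglobulin. Interferons raise the transcription of many of these genes, and Nlrc5 acts at the promoters of class I genes.

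The targeted genes were looked at first. Tet2 read 2.57, 4.08 and 3.71 RPKM in the controls against 0.358, 0.238 and 0.202 RPKM after the siRNAs (limma, adjusted p = 2.88e-05). Tet1 read 0.032, 0.098 and 0.05 RPKM in the controls against 0.001, 0.01 and 0.001 RPKM after the siRNAs, where 0.001 is the lowest value the table lists, and its mean was too low for the test. Tet3, which was not targeted, lay between 5.91 and 8.80 RPKM in the control libraries and between 6.96 and 8.48 RPKM in the siRNA libraries. Tet2 therefore followed the labels in every library, and the ranges of Tet3 overlapped.

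All 10 class I presentation genes were lower in Tet1/Tet2 siRNA-treated BMMSCs, with an adjusted p under 0.05 from limma on log2(RPKM + 1). Of all genes tested, 3952 (29.8%) were lower by the same rule and 1953 (14.7%) were higher. The log2 fold changes ran from -1.98 to -0.69 with a median of -1.02, against a median of -0.09 over all genes tested. The 1 added before the log makes differences of scarce transcripts look smaller than they are. In each of the 10 genes the highest siRNA library lay under the lowest control library, as it did in 35.9% of all genes tested. The balance of all genes depended on the scaling of the libraries: 66.9% of the genes with an adjusted p under 0.05 were lower as deposited, 74.2% after rescaling each library to the same sum, 52.7% after median ratio scaling and 42.1% after quantile normalization. Quantile normalization moved the median of all genes to 0.06, and the median of the 10 genes was then -0.94. In bulk RNA, fewer cells of a type that express these genes and less RNA in each cell cannot be told apart.

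**Figure D1:**
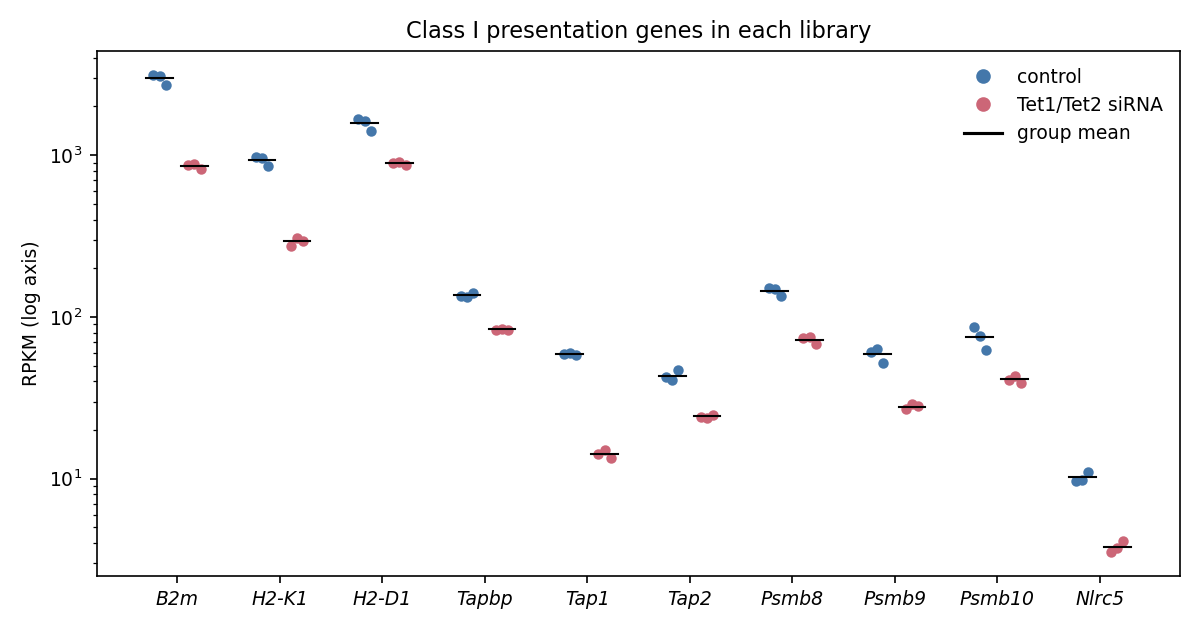
RPKM of the 10 class I presentation genes (log axis) in each of 3 control libraries (blue) and 3 Tet1/Tet2 siRNA libraries (red), with black lines at the group means. For every gene the 3 siRNA points lie under the 3 control points, from B2m, the most abundant gene in the control libraries, to Nlrc5, the least abundant.

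The class I molecule itself was considered first. B2m, the light chain shared by all classical class I molecules, lies on chromosome 2 of GRCm38 from 122147686 to 122153083. It read 3148, 3087 and 2721 RPKM in the controls against 870.2, 882 and 822 RPKM after the siRNAs. The siRNA libraries lay close together and held 28.7% of the control mean. The log2 fold change of B2m was -1.80 (limma, adjusted p = 9.36e-06 by the Benjamini-Hochberg method, standard error 0.10).

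H2-K1, on chromosome 17 from 33996017 to 34000347, encodes the K heavy chain. It read 976, 955 and 855 RPKM in the controls against 276, 308 and 296 RPKM after the siRNAs. The groups were separated by a wide gap, and the log2 fold change was -1.66 (limma, adjusted p = 5.12e-06, standard error 0.08). H2-D1, the gene of the D heavy chain at the other end of the same region, lies from 35262730 to 35267499. It read 1676, 1627 and 1418 RPKM in the controls against 893, 912 and 869.9 RPKM after the siRNAs. H2-D1 kept 56.7% of its control mean, more than H2-K1 with 31.6%, and its log2 fold change was -0.82 (limma, adjusted p = 0.00031, standard error 0.10).

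Ratios within a library do not depend on a factor by which the whole library is scaled. The summed RPKM of H2-K1 and H2-D1 was 0.842, 0.837 and 0.835 times that of B2m in the control libraries and 1.34, 1.38 and 1.42 times in the siRNA libraries. The summed heavy chain RPKM was thus below that of B2m in each control library and above it in each siRNA library. The level of such a ratio, unlike its change between the groups, also depends on the gene lengths used for RPKM. The ratio of H2-K1 to H2-D1, chosen after the values were seen, was 0.582, 0.587 and 0.603 in the control libraries and 0.309, 0.338 and 0.340 in the siRNA libraries. The groups did not overlap for either ratio. In a two-sided exact permutation test each gave p = 0.1, the smallest value that 3 libraries against 3 allow, and the adjusted p over the 7 ratios computed was 0.1. H2-K1 and H2-D1 are close relatives, and how reads matching several genes were counted is not given in the sources used here. Of the stretches of 100 bases, the read length, in annotated transcripts of H2-K1, 0.957% also occurred in another annotated class I heavy chain of the K, D, Q, T or M groups, and of those in H2-D1 3.44% did.

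Other heavy chains of the class I family were then compared, from a list of 27 genes. Of these, 20 had a row in the table and 17 were tested. Of these 9 (52.9%) were lower and 4 (23.5%) were higher, against 29.8% and 14.7% of all genes tested. All 9 lower genes belonged to the class Ib group of the H2 Q, T and M regions and related genes, in which 13 were tested. Of these 9, H2-Q2, under 0.5 RPKM in every library, lost the call in 10 of 17 other settings, among them the fits without control replicate 1 or 2 or siRNA replicate 1 or 3. H2-M3 lost it in 1 of 18, without the filter on low values, and the other 7 kept it. H2-Q4, which fell furthest, read 83.5, 76.5 and 91.6 RPKM in the controls against 9.75, 13.4 and 12.5 RPKM after the siRNAs. Its log2 fold change was -2.73 (limma, adjusted p = 1.94e-06, standard error 0.12), larger than that of any of the 10 class I presentation genes. The log2 fold change was -2.14 for H2-T24, -1.72 for H2-Q7 and -1.39 for H2-T22. H2-T23, the Qa-1 heavy chain, which presents peptides from the leaders of other class I molecules, was the most abundant gene of the list over all 6 libraries, although Fcgrt, a gene described below, was above it in the siRNA libraries. It read 125.5, 123 and 104 RPKM in the controls against 45.3, 49.2 and 43.5 RPKM after the siRNAs.

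The 4 higher genes were the 4 class I-like genes tested outside these regions. Fcgrt, the heavy chain of the neonatal Fc receptor, read 45.0, 40.5 and 38.5 RPKM in the controls against 60.0, 64.8 and 63.6 RPKM after the siRNAs. Its product pairs with beta-2 microglobulin, but it carries IgG and albumin and not peptides. The log2 fold change was 0.59 for Fcgrt, 0.57 for Cd1d1, which presents lipids, 0.55 for Mr1, which presents vitamin B metabolites, and 0.50 for Hfe, a regulator of iron uptake. Their adjusted p from limma lay between 0.000304 for Fcgrt and 0.00667 for Cd1d1, and Cd1d1 was not past the threshold without the filter on low values. The sum of these 4 genes was 86.4, 80.4 and 73.1 RPKM in the control libraries and 117, 122 and 119 RPKM in the siRNA libraries, so genes for B2m-binding proteins moved in opposite directions. Reads of some Q and T genes may be split between near-identical copies, or credited to a single copy. Of the 100-base stretches, 11.9% of those of H2-Q7 and 7.88% of those of H2-T22 occurred in another annotated heavy chain. The share was lower for H2-Q4 with 1.16%, H2-T23 with 1.61% and H2-T24 with 0%. H2-T10, with which H2-T22 shared most, had no row, nor had H2-Q5, H2-Q6, H2-Q8, H2-Q9 and H2-T9.

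Peptide transport was examined next. TAP is built from the products of Tap1 and Tap2, and both are needed for transport. Tap1, on chromosome 17 from 34187553 to 34197225, read 59.2, 59.9 and 58.2 RPKM in the controls against 14.2, 15.1 and 13.5 RPKM after the siRNAs. Its log2 fold change of -1.98 (limma, adjusted p = 5.65e-07, standard error 0.06) was the largest decrease of the 10 genes, and 1.30% of all genes tested fell as far or further. Tap2, from 34203527 to 34216321, read 42.6, 40.9 and 46.8 RPKM in the controls against 24.03, 23.9 and 24.9 RPKM after the siRNAs. Its log2 fold change was -0.81 (limma, adjusted p = 4.55e-05, standard error 0.07).

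The subunits of the transporter did not keep their proportion. Tap1 was 1.39, 1.46 and 1.24 times Tap2 in the control libraries and 0.589, 0.633 and 0.543 times Tap2 in the siRNA libraries, a ratio also chosen after the values were seen. By RPKM, Tap1 stood above Tap2 in each control library and below it in each siRNA library (two-sided exact permutation test, p = 0.1, the smallest possible, n = 3 and 3). Tapbp, the gene of tapasin, lies on chromosome 17 from 33915899 to 33929292. It read 133.8, 133.7 and 140.4 RPKM in the controls against 82.9, 84.7 and 83.6 RPKM after the siRNAs. Its log2 fold change of -0.69 (limma, adjusted p = 3.66e-05, standard error 0.05) was the smallest of the 10 genes. The annotation of Tapbp contains that of Zbtb22 on the same strand over 3422 bases, and Zbtb22 averaged 11.7 RPKM in the control and 12.4 RPKM in the siRNA libraries.

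Of 11 other genes of peptide trimming and loading, 5 were lower, or 45.5% against 29.8% of all genes tested, and 1 was higher. Erap1, the aminopeptidase that trims peptides in the endoplasmic reticulum, read 27.6, 28.2 and 29.7 RPKM in the controls against 17.5, 18.5 and 18.3 RPKM after the siRNAs. Its log2 fold change was -0.63, and those of Tapbpl, a relative of tapasin, and of the chaperone Hspa5 were both -0.47. Blmh, a cytosolic peptidase, was the higher gene, with a log2 fold change of 0.39. Calr, the chaperone calreticulin and the most abundant gene of this list, lay between 718 and 841 RPKM in the control libraries and between 728 and 765 RPKM in the siRNA libraries, so its ranges overlapped. Among the 6 called genes, Tpp2 at -0.31 and Thop1 at -0.25 on the log2 scale lost the call in 9 and 10 of 18 other settings. Without control replicate 2, siRNA replicate 1 or siRNA replicate 2, 3 of the 11 genes were lower. Of all genes tested in these fits, 3164 of 13245, 3020 of 13289 and 3014 of 13301 were lower. Median ratio scaling, quantile normalization and scaling to Gapdh also gave 3 of the 11, or 27.3%, and rescaling to the same sum gave 7. Of all 13266 genes tested, 3054 were lower after median ratio scaling, 2627 after quantile normalization and 2666 after scaling to Gapdh. Rescaling to the same sum gave 4376 lower genes, against 3952 as deposited.

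The proteasome was examined by its catalytic subunits. The immunosubunits Psmb8, Psmb9 and Psmb10 take the places of the constitutive Psmb5, Psmb6 and Psmb7 in newly built proteasomes, and change which peptides are made. Psmb8, on chromosome 17 from 34197721 to 34201454, read 152, 149.8 and 134 RPKM in the controls against 73.6, 75.1 and 68.5 RPKM after the siRNAs. Psmb9, from 34181987 to 34187764, read 61.0, 63.8 and 51.9 RPKM in the controls against 26.8, 28.8 and 28.3 RPKM after the siRNAs. Psmb10, on chromosome 8 from 105935735 to 105938444, read 86.3, 76.4 and 62.4 RPKM in the controls against 40.8, 43.3 and 39.3 RPKM after the siRNAs. Control replicate 3 was the lowest control library for all 3 subunits and still lay above every siRNA library. The log2 fold changes were -0.99 for Psmb8 (limma, adjusted p = 2.21e-05, standard error 0.07), -1.04 for Psmb9 (limma, adjusted p = 4.13e-05, standard error 0.08) and -0.84 for Psmb10 (limma, adjusted p = 0.000472, standard error 0.11).

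The constitutive counterparts were compared with them. Psmb5 read 81.7, 80.9 and 63.8 RPKM in the controls against 96.3, 95.5 and 90.4 RPKM after the siRNAs, a log2 fold change of 0.32 (limma, adjusted p = 0.0265, standard error 0.10), a call that was lost in 5 of 18 other settings, among them the fits without siRNA replicate 1 or 2. Psmb6 averaged 119 RPKM in the control and 137 RPKM in the siRNA libraries (limma, adjusted p = 0.248). Psmb7, the most abundant of the 3 in the controls, averaged 141 and 134 RPKM (limma, adjusted p = 0.78), and the ranges of Psmb6 and Psmb7 overlapped between the groups. Without control replicate 3, the lowest library for each of the 3 genes, Psmb7 was lower with a log2 fold change of -0.22 (limma, adjusted p = 0.0171), a smaller change than that of Psmb10.

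Psmb8 made up 65.02%, 64.9% and 67.8% of the summed RPKM of Psmb8 and Psmb5 in the control libraries and 43.3%, 44.0% and 43.1% in the siRNA libraries. Psmb8 was thus the larger part of the summed RPKM of its pair in each control library and the smaller part in each siRNA library. Psmb9 made up 30.6%, 33.3% and 36.5% of its pair with Psmb6 in the control libraries and 15.9%, 16.95% and 18.3% in the siRNA libraries. Psmb10 made up 35.0%, 33.2% and 36.4% of its pair with Psmb7 in the control libraries and 23.1%, 23.5% and 23.8% in the siRNA libraries. Over the 3 pairs together, a sum added after the values were seen, the immunosubunits held 45.7% ± 2.49 (SD, n = 3) in the control and 27.96% ± 0.509 (SD, n = 3) in the siRNA libraries. The groups did not overlap for any of these 4 shares, and each gave p = 0.1 in a two-sided exact permutation test (adjusted p = 0.1 over 7 ratios).

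**Figure D2:**
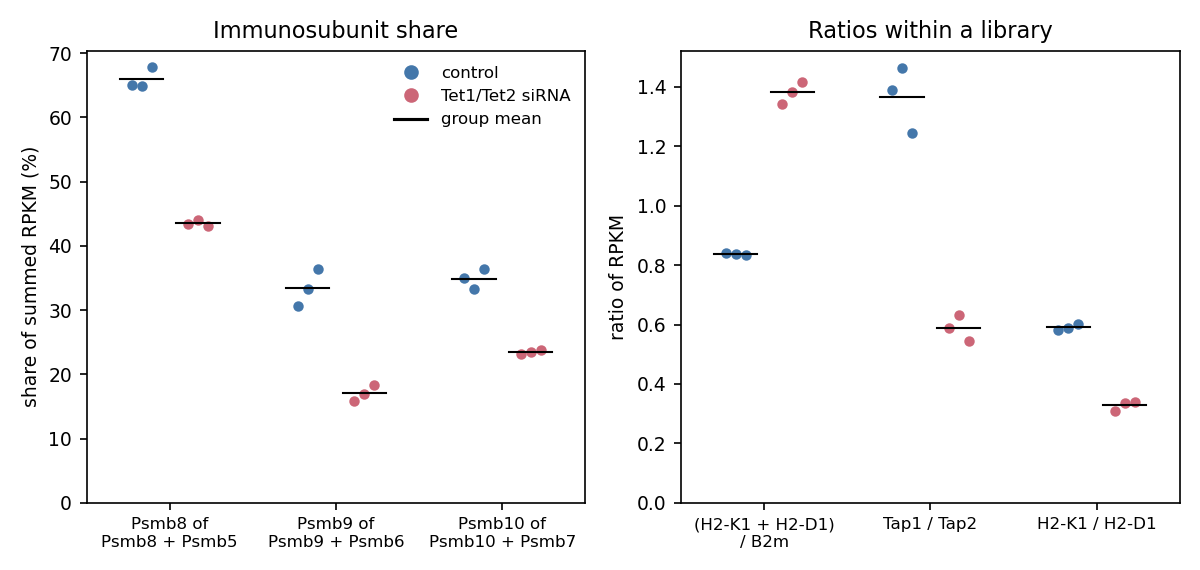
Left, RPKM of each immunosubunit as a percent of its sum with the constitutive counterpart. Right, ratios of RPKM within a library for heavy chains to B2m, Tap1 to Tap2 and H2-K1 to H2-D1. Points are the 3 control (blue) and 3 Tet1/Tet2 siRNA (red) libraries and black lines the group means. The heavy chain to B2m ratio is higher in the siRNA libraries, with means of 0.838 and 1.38, and the other values are lower.

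The rest of the proteasome was compared next. Of 11 core subunits shared by both kinds of proteasome, 1 (9.09%, against 29.8% of all genes tested) was lower, Psma3, with a log2 fold change of -0.29 that lost the call in 8 of 18 other settings, and the median of the list was -0.09. This count depended on single libraries and on the fit. Without control replicate 3, 8 of the 11 were lower, a larger share than the 4134 of all 13227 genes tested in that fit. Without control replicate 1, siRNA replicate 1 or siRNA replicate 3, 0 of the 11 were lower. Of all genes tested in these fits, 3695 of 13242, 3020 of 13289 and 3812 of 13260 were lower. With equal replicate numbers blocked together, 4 (36.4%) were lower, as after rescaling to the same sum. Of all 13266 genes tested, 4468 were lower with this block and 4376 after this rescaling. Median ratio scaling, quantile normalization and scaling to Gapdh each gave 0 of the 11. Psmb4, the most abundant, lay between 184 and 229.7 RPKM in the control libraries and between 186 and 212 RPKM in the siRNA libraries. Of 9 activator and assembly genes, 3 were lower, a share near the 29.8% of all genes tested. Without control replicate 3, 6 of the 9 were lower, a larger share than the 4134 of all 13227 genes tested in that fit. Without control replicate 2 or siRNA replicate 2, only Psme1 was lower, against 3164 and 3014 of all genes tested. Psme1, a subunit of the interferon-inducible PA28 activator, read 123, 118 and 94.9 RPKM in the controls against 70.9, 70.9 and 62.8 RPKM after the siRNAs, a log2 fold change of -0.70 (limma, adjusted p = 0.000852, standard error 0.10). Psme2, its partner, and Psme3 were lower by 0.40 and 0.16 on the log2 scale and lost the call in 8 and 9 of 18 other settings. Pomp, the most abundant gene of this list and an assembly factor, averaged 212 RPKM in the control and 207 RPKM in the siRNA libraries.

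Transcription factors of the class I promoters were examined last. Nlrc5, on chromosome 8 from 94434356 to 94527272, read 9.69, 9.86 and 11.04 RPKM in the controls against 3.53, 3.74 and 4.11 RPKM after the siRNAs. It was the least abundant of the 10 genes in both groups, with a log2 fold change of -1.22 (limma, adjusted p = 2.75e-05, standard error 0.09). Of 16 other promoter factors, 5 were lower and 1 was higher, and the share of lower genes was near the 29.8% of all genes tested. Among the 8 factors of the X and Y boxes, through which Nlrc5 acts, Nfya was higher with a log2 fold change of 0.69 and a mean of 35.1 RPKM in the control and 57.2 RPKM in the siRNA libraries. Nfyb was lower by 0.38 on the log2 scale and lost the call in 9 of 18 other settings, and the other 6 were not past the threshold.

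Among the 8 interferon and NF-kB factors, 4 were lower, a larger share than the 29.8% of all genes tested. Stat2, which carries type I interferon signals to the nucleus, read 77.4, 85.6 and 87.6 RPKM in the controls against 17.04, 19.002 and 18.8 RPKM after the siRNAs. Its log2 fold change was -2.13, and those of Irf9 and Irf1 were -1.14 and -0.96. Irf8, the most abundant factor of the list over all 6 libraries, averaged 61.5 RPKM in the control and 65.6 RPKM in the siRNA libraries and was not called. Of the interferons listed, Ifna4 was at the lowest listed value of 0.001 RPKM in all 6 libraries, Ifng reached 0.043 RPKM in siRNA replicate 1 alone, and Ifnb1 reached at most 0.32 RPKM, in control replicate 3. Of 4 receptor genes, Ifnar1 was higher by 0.37 on the log2 scale, and the other 3 were not past the threshold.

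Over the 6 lists of other class I pathway genes, 23 of 67 tested genes were lower and 7 higher, and the median log2 fold change was -0.16. These shares are near the 29.8% lower and 14.7% higher of all genes tested. Without control replicate 3, 36 of these 67 genes were lower, a larger share than the 4134 of all 13227 genes tested in that fit. Of the 30 called genes, 20 kept the call in every setting in which they were tested, 15 of them lower and 5 higher. The class II pathway was compared as well: 2 of 9 genes tested were lower and 1 was higher, shares near those of all genes tested. This balance depended on the scaling, with 0 lower and 3 higher after median ratio scaling and 0 lower and 4 higher after quantile normalization. Over all 13266 genes tested, 3054 were lower and 2737 higher after median ratio scaling. After quantile normalization these counts were 2627 and 3607, against 3952 and 1953 as deposited. H2-Ab1 was lower by 0.52 and H2-Eb1 by 0.20 on the log2 scale, whereas Ifi30 was higher with a log2 fold change of 0.30. Both lower genes were scarce. H2-Ab1 averaged 2.31 RPKM in the control and 1.38 RPKM in the siRNA libraries, with 2.17 RPKM in siRNA replicate 1. H2-Eb1 was at 0.463 RPKM or less in every library. Of the 6 fits that left out a library, H2-Ab1 kept the call only without siRNA replicate 1, and H2-Eb1 only without control replicate 3 or siRNA replicate 3. Ifi30 was not called without siRNA replicate 1 or 2. Ctss, a protease of the class II pathway and the most abundant gene of this list, averaged 2051 RPKM in the control and 2084 RPKM in the siRNA libraries.

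**Figure D3:**
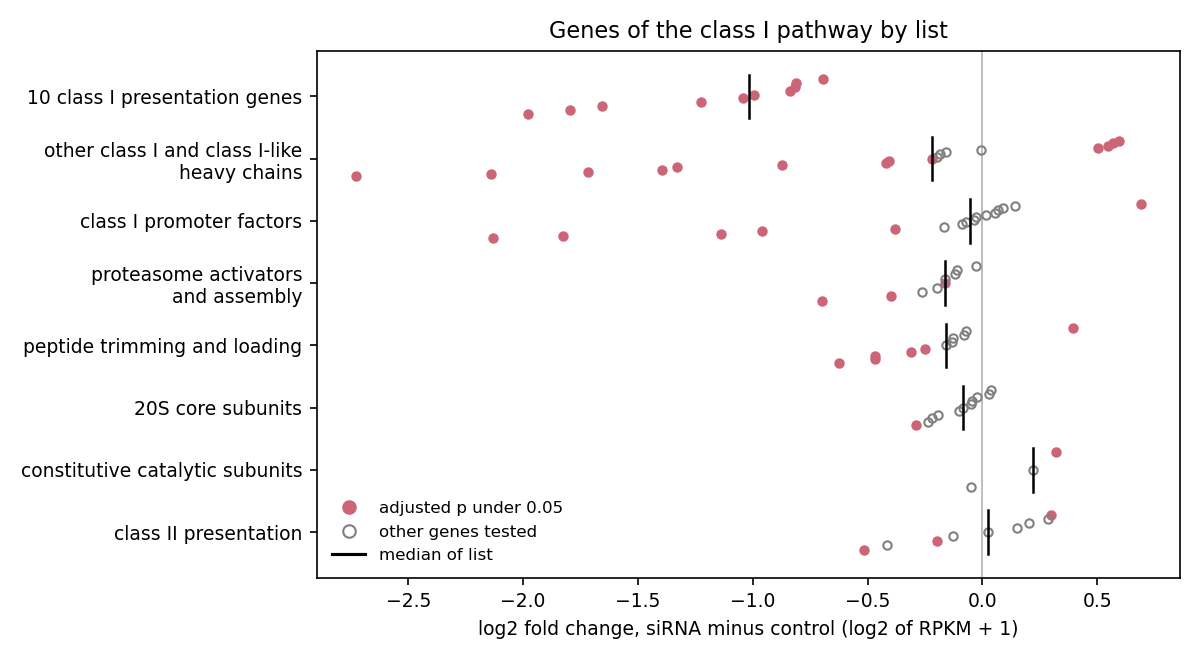
Log2 fold change (siRNA minus control, on log2 of RPKM + 1) of each gene tested, by list. Filled red points have an adjusted p under 0.05 from limma, open grey points do not, and black lines are the medians of the lists. The 10 class I presentation genes all lie under 0 with a median of -1.02, and the 11 core subunits centre at -0.09.

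Among the 10 genes, levels and changes were ordered as follows. In the control libraries B2m stood above H2-D1 and H2-K1, then Psmb8 and Tapbp, whose ranges overlapped, Psmb10, Tap1 and Psmb9, where the range of Psmb9 overlapped those of both others, Tap2 and Nlrc5. In the siRNA libraries the ranges of H2-D1 and B2m overlapped at the top, and Tap1 had moved from above Tap2 to the place before Nlrc5. By log2 fold change the order was Tap1, B2m, H2-K1, Nlrc5, Psmb9, Psmb8, Psmb10, H2-D1, Tap2 and Tapbp. The changes of Psmb10, H2-D1 and Tap2 lay within 1 standard error of each other, as did those of Psmb9 and Psmb8. Where an altered gene is 1 with p below 0.05 before adjustment and more than a 2-fold difference, 5 of the 10 genes were altered and lower, against 747 (5.63%) of all genes tested. These were Tap1, B2m, H2-K1, Nlrc5 and Psmb9, and Psmb8 lay just outside with a 1.99-fold difference on the log2(RPKM + 1) scale and a 2.01-fold ratio of the group means.

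The 5 other genes whose profile over the 6 libraries was most like the mean profile of the 10 genes were Ahsa1, Pld4, Mlkl, Slfn3 and Parp10. Likeness was measured as the root mean square distance of centred log2(RPKM + 1) values, which was 0.0503 for Ahsa1 and 0.0705 for Parp10. Ahsa1, a co-chaperone of Hsp90, read 477, 469 and 414 RPKM in the controls against 183, 195 and 185 RPKM after the siRNAs. The distance of the 10 genes themselves from their mean ran from 0.0942 for Psmb9 to 0.399 for Tap1.

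Of the 10 genes, 7 lie on chromosome 17 between Tapbp and H2-D1, an interval of 1.352 Mb, and the other 3 lie on chromosomes 2 and 8. The other genes of this interval were compared after the values were seen. Of 63 other genes tested there, 15 were lower and 8 were higher, that is 23.8% lower against 29.8% of all genes tested, and their median log2 fold change was -0.01. Within it, Psmb9, Tap1, Psmb8 and Tap2 follow each other without another tested gene between them, and the flanking H2-DMb1 and H2-Ab1 had log2 fold changes of 0.29 (limma, adjusted p = 0.0503) and -0.52 (adjusted p = 0.0431). The other genes that fell at least as far as Tapbp were Cfb, C2 and C4b, which encode complement proteins, and Tnf and Ddah2. Apart from Psmb9, Tap1, Psmb8 and Tap2, which adjoin, genes that were not lower lay between the class I presentation genes of the interval. The part of position in these changes was not tested.

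**Figure D4:**
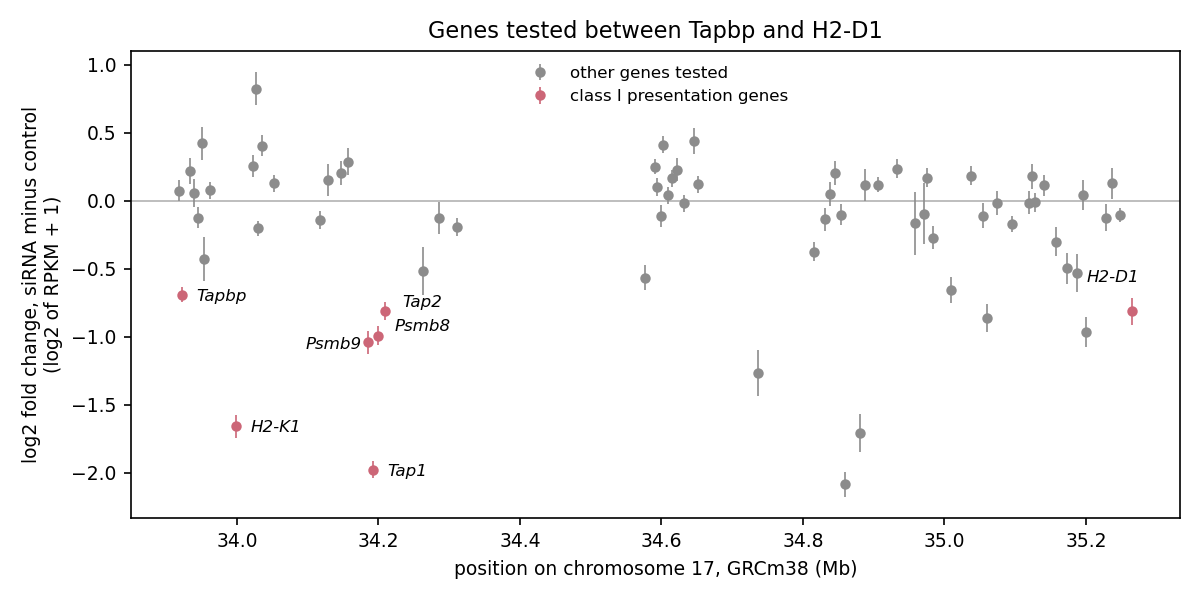
Log2 fold change (siRNA minus control, on log2 of RPKM + 1) of the 70 genes tested between Tapbp and H2-D1, against their midpoint on chromosome 17 of GRCm38 in Mb. Bars are 1 standard error from limma. The 7 class I presentation genes (red) lie between -1.98 and -0.69, and the 63 other genes (grey) have a median of -0.01.

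Promoters were described because the 10 genes moved together. RefSeq windows on GRCm38.p6, from 250 bases before to 50 after the start, were found for 8 of the 10 genes, all except Tap2 and Nlrc5. Both strands were searched for GAAANNGAA, the core of the interferon-stimulated response element, TTCNNNGAA, the gamma-activated site, CCAAT, the core of the Y box, and TGACG, a part of the X2 box. These letters occurred in 8.56%, 8.30%, 37.4% and 20.8% of all 32851 promoter windows. GAANNGAAA, the same core with the extra A at its other end, and GGGATTCCC, a kappa B palindrome, were added after the sequences were seen and occurred in 7.52% and 0.353% of the windows. A match is a description of letters and not of binding.

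The class I molecule genes are shown because all 3 windows hold TGACG followed by the reversed CCAAT. The 250 bases before the start are printed 5′ to 3′ on the strand of the gene, and capitals mark matches to the motifs in either orientation. B2m is from chr2:122147437-122147686 on the plus strand, H2-K1 from chr17:34000348-34000597 on the minus strand, before the more upstream of its 2 RefSeq starts, and H2-D1 from chr17:35262844-35263093 on the plus strand.
B2m: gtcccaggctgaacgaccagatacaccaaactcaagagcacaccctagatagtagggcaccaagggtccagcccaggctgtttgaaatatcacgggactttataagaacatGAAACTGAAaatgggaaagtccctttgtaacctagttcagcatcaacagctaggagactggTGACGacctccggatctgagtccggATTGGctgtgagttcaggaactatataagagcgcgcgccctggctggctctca
H2-K1: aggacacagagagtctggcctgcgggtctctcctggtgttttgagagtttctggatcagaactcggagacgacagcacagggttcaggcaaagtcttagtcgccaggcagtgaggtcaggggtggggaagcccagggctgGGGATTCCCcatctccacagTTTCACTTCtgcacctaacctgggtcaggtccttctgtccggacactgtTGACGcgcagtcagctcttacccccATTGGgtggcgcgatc
H2-D1: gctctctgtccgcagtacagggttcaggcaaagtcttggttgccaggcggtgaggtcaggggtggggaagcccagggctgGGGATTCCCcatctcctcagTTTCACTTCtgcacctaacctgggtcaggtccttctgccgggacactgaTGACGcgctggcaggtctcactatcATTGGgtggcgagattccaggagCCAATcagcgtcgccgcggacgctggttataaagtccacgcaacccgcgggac

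In B2m, GAAANNGAA began 139 bases before the start, TGACG 78 and CCAAT, on the other strand, 53 bases before it. In H2-D1, GGGATTCCC began 170, GAANNGAAA, on the other strand, 150, TGACG 101 and the first CCAAT, on the other strand, 76 bases before the start. In H2-K1 the same motifs began 110, 90, 41 and 16 bases before the start. The step from TGACG to the reversed CCAAT was 25 bases in all 3 genes. This arrangement, looked for after the sequences were seen, was present in 31 of all promoter windows, or 0.0944%, in 3 of the 8 genes with a window, and in 1 of 17 other class I and class I-like heavy chains with a window, H2-M3. An alignment of the H2-K1 and H2-D1 sequences had 170 identical bases in 190 aligned, or 89.5%, with 120 gap positions outside these 190, whereas the fold changes of these genes differed as given above.

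Tap1 and Psmb9 are transcribed away from each other, and their RefSeq starts, at 34187556 and 34187330, are separated by 225 bases. The sequence between the starts is shown because it belongs to both windows and the genes fell by different amounts. It is chr17:34187331-34187555 on the plus strand, with CCAAT and TGACG in capitals.
Tap1 and Psmb9: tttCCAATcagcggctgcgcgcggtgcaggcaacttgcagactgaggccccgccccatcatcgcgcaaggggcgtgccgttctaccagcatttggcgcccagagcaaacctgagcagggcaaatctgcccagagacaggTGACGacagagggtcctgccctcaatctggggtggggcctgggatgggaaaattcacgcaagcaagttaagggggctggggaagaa
CCAAT began 222 and TGACG 86 bases before the start of Tap1, and neither interferon core nor the kappa B palindrome was found in either window. In GENCODE the genes overlap on opposite strands over 212 bases, and since the use of strand is not given in the sources used here, reads from this overlap cannot be told apart. Of the other windows, Psmb8 held TTCNNNGAA 97 bases before its start, Tapbp held CCAAT at 248 and 165 bases, and Psmb10 held none of the motifs.

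The labelled cell type was checked against marker genes, which also show what moved with the class I genes. Of 20 stromal markers, 17 were tested, of which 15 (88.2%) were lower in the siRNA libraries and 0 were higher, against 29.8% and 14.7% of all genes tested. Their summed level was 1857, 1737 and 2305 RPKM in the control libraries and 241, 343 and 486 RPKM in the siRNA libraries, and Sparc was the most abundant. Thy1, Lepr and Lum were at 0.146 RPKM or less in each of the 6 libraries, and Lum stood at the lowest listed value in 4 of them. Of 20 macrophage markers with a row, all tested, 9 were higher and 4 were lower, a larger share of higher and a smaller share of lower genes than among all genes tested (14.7% and 29.8%). Without control replicate 2, siRNA replicate 1 or siRNA replicate 2, 2 of the 20 were lower. Of all genes tested in these fits, 3164 of 13245, 3020 of 13289 and 3014 of 13301 were lower. The macrophage markers summed to 12920, 12070 and 9862 RPKM in the control libraries and 21430, 20350 and 18330 RPKM in the siRNA libraries. Lyz2 was the most abundant, rising from a mean of 4439 to 11320 RPKM, which made up most of the rise of the sum. Fcgr1, the marker with the largest change, fell from a mean of 109.1 to 27.84 RPKM, a log2 fold change of -1.93. Macrophage markers thus stood far above stromal markers in both groups, which the label of the cells does not reflect. The part of either marker list in the lower class I genes was not tested.

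Genes of other cell types were low. The summed T and NK cell markers reached at most 8.83 RPKM, most of it from Cd4, and Cd3g and Ncr1 were at the lowest listed value in all 6 libraries. The summed B cell markers reached at most 1.34 RPKM, mostly Cd79b, and the erythroid markers 0.246 RPKM, led by Klf1 over all 6 libraries. The endothelial markers, led by Kdr, summed to 2.42, 2.64 and 2.88 RPKM in the control libraries and to 1.43, 1.353 and 1.46 RPKM in the siRNA libraries. Of the 4 tested, Kdr and Emcn were lower and Pecam1 was higher, but only Kdr kept the call in every setting. Emcn lost it without control replicate 2 or siRNA replicate 1 or 2, and Pecam1 without control replicate 2 or 3 or siRNA replicate 1 or 3. The dendritic markers summed to between 10.4 and 13.6 RPKM, led by Itgax, with Ccr7 at the lowest listed value in all libraries. The neutrophil markers summed to 3.51, 3.38 and 3.44 RPKM in the control libraries and to 16.2, 12.97 and 9.27 RPKM in the siRNA libraries, nearly all of the latter from S100a8, with S100a9 at the lowest listed value in all libraries. Camp, the other neutrophil marker tested, was lower, with means of 1.446 RPKM in the control and 0.058 RPKM in the siRNA libraries. S100a8 and Cd4 were higher in the siRNA libraries in every setting, and Cd79b and Itgax were higher with all libraries. Cd79b lost the call without control replicate 2 or siRNA replicate 2 or 3, and Itgax kept it only without control replicate 2 among the fits that left out a library. The part of these markers in the class I result was not tested.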

How the data were processed

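RNA-seq of 3 control and 3 Tet1/Tet2 siRNA libraries was examined. The authors mapped reads to GRCm38 with DNASTAR Lasergene and deposited unlogged RPKM, named FPKM in their methods. A column with the p-values of the authors' own test was left unused. Of repeated rows of 37 symbols, only the most abundant entered. Genes averaging 0.1 RPKM or more were tested on log2(RPKM + 1) across all genes with limma 3.58.1 in R 4.3.3 (lmFit, eBayes with trend, two-sided) and Benjamini-Hochberg adjustment over 13266 genes. The fit was checked on simulated data, where it missed some changes, mostly under 2-fold, and after the first run the limit of this check was narrowed to changes of 2-fold and over. Ratios, tested by exact permutation, and sequences were handled in Python 3.11.15, with GENCODE M21 positions and RefSeq promoters. Depth was estimated as the number of reads that brought low values of single-transcript genes nearest to whole reads. Between 47.5% and 59.3% of them came within 0.1 of a whole number, where a depth fixed beforehand gives 20%, so no count test was run.

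The class I genes and all lists were chosen with earlier results of these data known. Named genes were the 10 genes, Tet1, Tet2 and Tet3, up to 4 called genes per direction and the most abundant gene of each pathway list, the most abundant and absent markers, and the 5 most similar genes; others were named after their values were seen. Deviations from the group means correlated at 0.149, 0.117 and 0.462 for replicates 1, 2 and 3, so equal replicate numbers were blocked together in an alternative fit. Nothing else supports this pairing, and control replicate 1 with siRNA replicate 2 gave 0.332. Alternatives were other pseudocounts, filters, scalings and variance models, the replicate block, each library left out, summed repeated rows and the ratio of group means.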

Additional observations from a re-analysis of the deposited data

How the results depend on the processing

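All 10 class I presentation genes stayed lower with an adjusted p under 0.05 from limma in each of 18 other settings. The highest adjusted p was 0.0279, for Psmb10 without a filter on low values. With the replicate number as a block, 10 of the 10 genes were called and 5 were altered, and 34 other pathway genes were called against 30 (27 against 23 lower, 7 and 7 higher); the block ended no call of these genes. The number of altered genes lay between 4 and 6. Leaving out a library gave between 17 and 36 lower genes among the other pathway genes, the highest without control replicate 3, and the cause was not tested. Over all genes tested, leaving out a library gave between 3014 and 4134 lower genes, the highest also without control replicate 3. Quantile normalization moved the difference in the H2-K1 to H2-D1 ratio, added after seeing the data, from -0.262 to -0.335, and the cause was not tested. The other ratios moved by less than the spread between replicates. Over all genes, 3952 lower and 1953 higher genes became 2627 and 3607 after quantile normalization, 2514 and 1230 without a filter, where 36870 genes were tested, and 2666 and 1287 after scaling to Gapdh.

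The table holds no counts, so counting error was not modelled, and Tet1 and the interferon genes were too low to test. With 3 libraries a group, single ratios cannot pass a threshold of 0.05 in an exact test. A planned comparison of the protein sequences was not run, since no protein table was available.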
